A study of Mus musculus with 17 samples.

Results

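The interferon regulatory factors measured here were the 8 genes Irf1, Irf2, Irf3, Irf4, Irf5, Irf7, Irf8 and Irf9. They were read by every non-control probe whose gene name on the array was one of these symbols, 12 of 41174 probes, for 8 of 28090 gene names. The mRNA of 6 populations of mouse bone marrow was read on 17 single-color arrays. The populations were LT-HSC (long-term hematopoietic stem cells, 2 arrays) and ST-HSC (short-term hematopoietic stem cells), MPP (multipotent progenitors), CMP (common myeloid progenitors), GMP (granulocyte-monocyte progenitors) and MEP (megakaryocyte-erythroid progenitors), with 3 arrays each. All came from untreated female C57Bl/6 mice, 6 to 8 weeks old, and the marrow was depleted of lineage-positive cells and enriched for c-kit before sorting. LT-HSC, ST-HSC and MPP, called HSC subsets, came from 1 kind of sort, and CMP, GMP and MEP from another, so sort and side cannot be told apart in a comparison of the sides. Each array held RNA of pooled mice, and 1 LT-HSC array is labelled as a pool of replicates 2 and 3.

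Interferon regulatory factors are transcription factors that share a DNA-binding domain which recognizes the interferon-stimulated response element, a GAAA-repeat found before many interferon-induced genes. Irf3, Irf5 and Irf7 are activated downstream of pathogen sensors and drive interferon and cytokine genes, Irf9 is the DNA-binding part of the complex ISGF3 that answers type I interferon, and Irf1 and Irf2 act on overlapping sites, Irf1 mostly as an activator and Irf2 mostly as a repressor. Irf4 and Irf8 bind weakly alone and join Ets factors such as PU.1 on composite sites. In hematopoiesis Irf8 is known for monocyte and dendritic-cell development, and Irf4 for B cells, plasma cells and dendritic cells.

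Levels are given as log2 intensity after quantile normalization, and a level is compared only with levels of the same probe, since probes differ in brightness for reasons other than abundance. The probes of 7 of the 8 genes were well above background, by the scanner software's own test, on every array or on all but 1. The Irf4 probe passed that test on 5 of 17 arrays. No Irf probe was saturated. Irf1, Irf3, Irf8 and Irf9 had a brighter and a dimmer probe. The unnumbered LT-HSC array was the dimmest, its 75th percentile being 53.1 where no other array fell under 243, and 41.4% of its spots were well above background. Scanning took place in 3 runs, of which run 1 had the numbered myeloid arrays, run 2 the unnumbered array of each population but LT-HSC, and run 3 both LT-HSC arrays with the numbered ST-HSC and MPP arrays, so only run 2 held both HSC subsets and myeloid populations. Run 1 was also read with another version of the scanner software. Since nothing says how far the pools of mice were independent, p-values measure the spread between these arrays.

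An F-test over the 6 populations (limma, Benjamini-Hochberg adjustment over all probes, adjusted p under 0.05) called 8 of the 12 Irf probes. Of all probes, 40.6% passed the same test. The 8 were the brighter probes of Irf1, Irf8 and Irf9, the dimmer Irf8 probe, and the probes of Irf2, Irf4, Irf5 and Irf7. Both Irf3 probes and the dimmer probes of Irf1 and Irf9 did not pass.

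**Figure D1:**
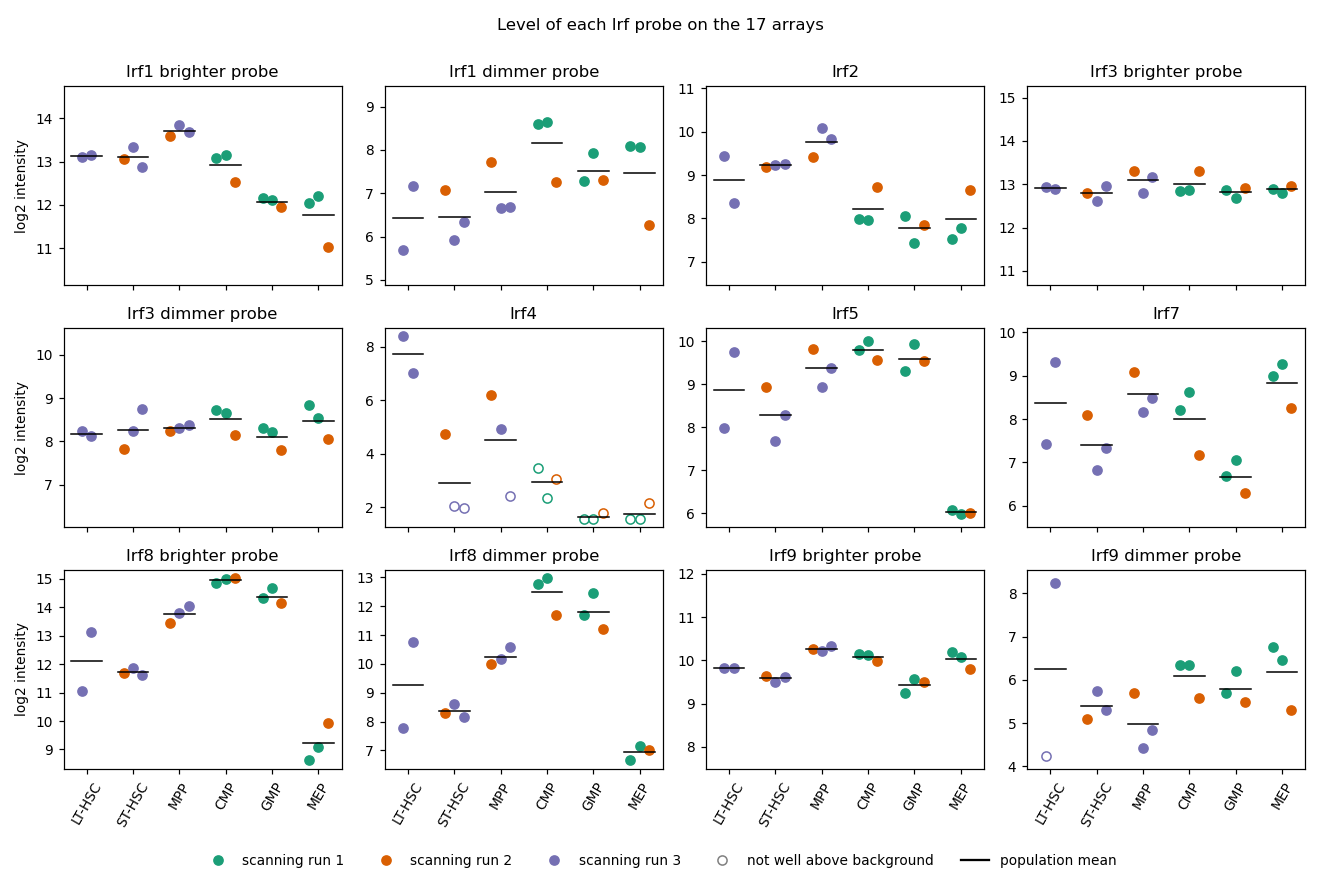
Log2 intensity (vertical axes, each panel with its own range) of each of the 12 Irf probes on the 17 arrays, by population. Points are arrays, colored by scanning run, open where the probe was not well above background, and lines are population means. Irf8 and Irf5 were lowest in MEP, Irf4 was highest in LT-HSC, and the 2 LT-HSC arrays lay far apart for Irf5, Irf7, Irf8 and the dimmer Irf9 probe.

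Irf8, which directs progenitors towards monocytes and dendritic cells, had the widest range of the measured family members with a signal on every array. Its level was highest in CMP, somewhat lower in GMP, intermediate in MPP and lowest in MEP. The brighter Irf8 probe (mm9, chr8:123280324-123280383) read 14.84, 14.98 and 15.01 in CMP, 14.31, 14.66 and 14.13 in GMP, and 13.80, 14.05 and 13.45 in MPP. In ST-HSC it read 11.85, 11.61 and 11.67, and in MEP 8.62, 9.10 and 9.94. The 2 LT-HSC arrays read 11.05 and 13.14. CMP, GMP and MPP therefore did not overlap each other or MEP, whereas the LT-HSC arrays straddled ST-HSC. The dimmer Irf8 probe (chr8:123279889-123279948) gave the same order of means, from 12.48 ± 0.68 (SD, n = 3) in CMP to 6.94 ± 0.26 (n = 3) in MEP, and its CMP and GMP arrays overlapped. Across the 17 arrays the levels of both Irf8 probes had a Pearson correlation of 0.96, a description over arrays that share populations and runs.

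Irf5, a mediator of Toll-like receptor signals in myeloid cells, followed a like order. It read 9.79, 10.01 and 9.56 in CMP, 9.32, 9.93 and 9.53 in GMP and 6.08, 5.98 and 6.02 in MEP. The MEP arrays were below every other array. MPP had a mean of 9.38 ± 0.44 (SD, n = 3), ST-HSC 8.30 ± 0.63 (n = 3) and the 2 LT-HSC arrays read 7.99 and 9.76. None of these non-MEP neighbors in the order were separated, since the arrays of each overlapped those of the next. The correlation of Irf5 with the brighter Irf8 probe was 0.93 over the 17 arrays.

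**Figure D2:**
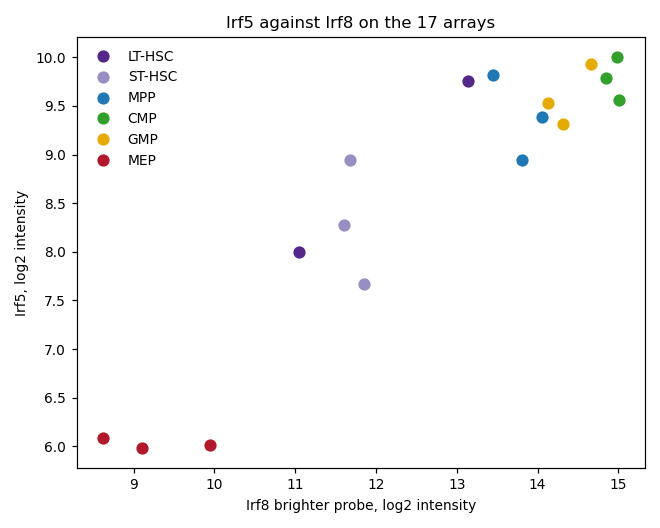
Log2 intensity of Irf5 (vertical axis) against the brighter Irf8 probe (horizontal axis), 1 point an array, colored by population. The 3 MEP arrays lie apart at the lower left, near 6 for Irf5, and CMP and GMP at the upper right.

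In GMP against MEP, 3 Irf probes were higher in GMP and 2 were lower, against 9.56% and 7.81% of all probes. Irf8 was 35.4-fold higher in GMP by the brighter probe, with a log2 difference of 5.15 ± 0.43 (SE, limma adjusted p = 1.93e-06). By the dimmer Irf8 probe the log2 difference was 4.85 ± 0.59 (adjusted p = 4.64e-05). Irf5 was 11.8-fold higher in GMP, with a log2 difference of 3.56 ± 0.41 (adjusted p = 2.69e-05). Irf7, the main inducer of interferon alpha genes, ran the other way and was 4.48-fold lower in GMP than in MEP, a log2 difference of -2.16 ± 0.52 (adjusted p = 0.00919). The brighter Irf9 probe was 1.50-fold lower in GMP, with a log2 difference of -0.59 ± 0.13 (adjusted p = 0.00709). None of the 5 overlapped between GMP and MEP arrays. Lack of overlap is a description here and below, since its share over all probes was not counted. All 5 passed with scanning run as a block and without any single array. Within run 1 and within run 2 the brighter Irf8 probe differed by 5.63 and 4.19, Irf5 by 3.59 and 3.51, Irf7 by -2.26 and -1.96 and the brighter Irf9 probe by -0.72 and -0.31. The Irf1, Irf2, Irf3 and Irf4 probes and the dimmer Irf9 probe did not pass, and the 95% interval of the difference of Irf1 by its brighter probe ran from -0.28 to 0.89 and that of Irf2 from -0.96 to 0.53. The median over the 12 probes was -0.09, beside -0.07 over all probes.

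In MEP against CMP, 4 Irf probes were lower in MEP and none was higher, against 9.43% and 7.24% of all probes. The brighter Irf8 probe was 52.9-fold lower in MEP, a log2 difference of -5.73 ± 0.43 (adjusted p = 1.14e-06), and the dimmer -5.54 ± 0.59 (adjusted p = 1.94e-05). Irf5 was 13.5-fold lower, -3.76 ± 0.41 (adjusted p = 2.23e-05). Irf1 by its brighter probe was 2.23-fold lower, -1.16 ± 0.27 (adjusted p = 0.00866). In these 4 the MEP arrays did not overlap the CMP arrays, and all 4 passed with run as a block. This comparison shares its MEP arrays with GMP against MEP, so the Irf8 and Irf5 values of both rest on the same 3 low arrays. In GMP against CMP the brighter Irf9 probe was the one that passed, lower in GMP by a log2 difference of -0.64 ± 0.13 (adjusted p = 0.0136), against 2.93% of all probes lower and 1.84% higher. That call was lost without GMP replicate 1, CMP replicate 1 or CMP replicate 2 (adjusted p up to 0.0697). With run as a block the brighter Irf1 probe passed as well, at -0.85 (adjusted p = 0.0129), with no overlap of its arrays and -0.98 within run 1 and -0.59 within run 2. Without the block its adjusted p was 0.116. The Irf8 difference of GMP from CMP was -0.58 with an interval from -1.52 to 0.36 by the brighter probe.

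**Figure D3:**
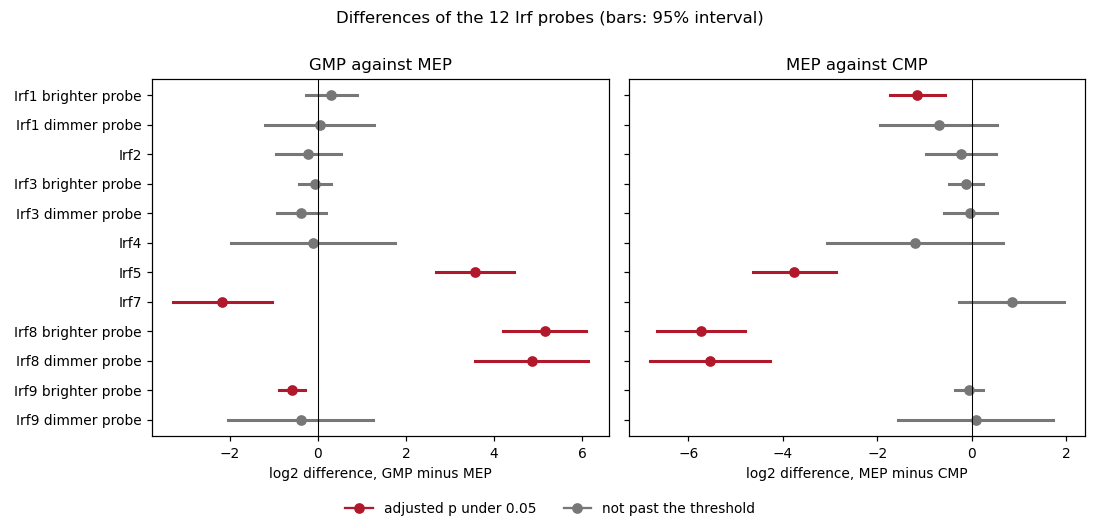
Log2 difference of each Irf probe (horizontal axes) in GMP minus MEP and in MEP minus CMP, with 95% intervals from limma. Red points had an adjusted p under 0.05, and both Irf8 probes and Irf5 stand farthest from 0 in both panels.

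Markers of monocytes and macrophages were lowest in MEP, as Irf8 and Irf5 were, and those of plasmacytoid dendritic cells followed another order. All 6 markers listed for monocytes and macrophages (Emr1, Cd14, Ccr2, Cx3cr1, Csf1r and Ly86) were higher in GMP than in MEP, and their mean log2 level on an array was 10.1 to 10.6 in GMP, 9.50 to 9.89 in CMP and 5.50 to 6.29 in MEP, where Cx3cr1 was not well above background on any array. It was 8.48 to 9.06 in ST-HSC and 8.06 to 8.16 in MPP, the reverse of the order of Irf8 and Irf5 in those populations, and 7.03 to 7.66 in LT-HSC. All 7 HSC markers were higher in HSC subsets than in myeloid populations, 6 with run as a block, where Slamf1 (adjusted p = 0.567) was lost. Slamf1 was well above background on 7 arrays, none of them MPP. All 6 MEP markers, among them Gata1 and Klf1, were lower in GMP than in MEP. All 5 GMP markers found, among them Mpo, were higher, as the labels of these 2 populations have it. HSC arrays had signal for both lists too. The mean of the MEP markers was 10.1 to 11.1 in LT-HSC and 9.50 to 10.7 in CMP. It was lower in ST-HSC (8.57 to 9.11) and MPP (6.20 to 7.21). The mean of the GMP markers was 13.25 to 13.96 in ST-HSC and 12.62 to 13.45 in CMP. It reached at most 12.82 in LT-HSC and 12.25 in MPP. Mean levels of the 5 plasmacytoid dendritic cell markers were 7.52 to 7.71 in CMP and 7.40 to 7.91 in MPP, against 5.28 to 5.60 in GMP and 5.43 to 6.73 in MEP. In LT-HSC they were 6.58 to 6.64 and in ST-HSC 5.60 to 5.88. Unlike Irf8 and Irf5 they were thus not high in GMP. Siglech was well above background on all CMP arrays. The part of such cells in the Irf8 and Irf5 levels was not tested, and in bulk RNA fewer cells of a type and less RNA per cell cannot be told apart.

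The start regions of Irf8 and Irf5, the genes that moved together, are shown as RefSeq gives them for GRCm38.p6, from 250 bases before the annotated start to 50 bases from it on. Capitals mark matches to the motifs searched, which were the ISRE-type GAAANNGAA, the Ets-Irf composite GGAANNGAA and the GAS, or Stat-dimer, TTCNNNGAA, each on both strands. The first of the Irf8 windows (chr8:120736108-120736407, plus strand) held 2 GAS matches, first bases at -171 and -153 from the start, and the window of its other start (chr8:120738389-120738688) held none of the 3 motifs. The Irf5 window (chr6:29526375-29526674, plus strand) held none of the 3 motifs.
Irf8: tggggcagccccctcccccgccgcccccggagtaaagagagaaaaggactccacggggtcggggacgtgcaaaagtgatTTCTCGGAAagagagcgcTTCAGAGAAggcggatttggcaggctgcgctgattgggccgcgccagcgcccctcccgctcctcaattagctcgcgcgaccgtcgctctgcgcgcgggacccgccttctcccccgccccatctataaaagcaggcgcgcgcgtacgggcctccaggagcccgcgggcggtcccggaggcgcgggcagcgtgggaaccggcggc
Irf5: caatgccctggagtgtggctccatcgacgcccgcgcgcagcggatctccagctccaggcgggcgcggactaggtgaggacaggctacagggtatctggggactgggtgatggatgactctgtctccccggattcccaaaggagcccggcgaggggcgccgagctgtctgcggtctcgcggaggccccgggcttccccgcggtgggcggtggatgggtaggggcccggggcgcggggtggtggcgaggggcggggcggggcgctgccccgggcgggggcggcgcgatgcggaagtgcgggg
Of 32851 RefSeq windows of this length, 8.56% held the ISRE-type motif, 8.24% the composite and 8.3% the GAS motif. All 8 Irf genes had a window, 11 windows in all with more than 1 start for some genes, and 3 of the 11 held a GAS match and 1 held each of the others. A match is a description of letters and no evidence of binding.

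Among the HSC subsets the step from ST-HSC to MPP was the one where Irf8 rose by its brighter probe. In MPP against ST-HSC, 2 Irf probes were higher and none was lower, against 1.15% and 0.874% of all probes. The brighter Irf8 probe was 4.16-fold higher in MPP, a log2 difference of 2.06 ± 0.43 (adjusted p = 0.025), and the dimmer probe differed by 1.90 with an adjusted p of 0.185. With replicate number as a block the dimmer probe passed as well (limma adjusted p = 0.0124). The brighter Irf9 probe was 1.61-fold higher, 0.69 ± 0.13 (adjusted p = 0.0162). In both probes called without that block the MPP arrays lay above all ST-HSC arrays. Run 2 and run 3 each gave the same direction, with 1.77 and 2.20 for the brighter Irf8 probe and 0.62 and 0.72 for Irf9. The Irf8 call was lost without any single ST-HSC or MPP array but the unnumbered MPP array (5 of 17 omissions, adjusted p up to 0.115), and the Irf9 call without any numbered ST-HSC or MPP array (4 omissions, adjusted p up to 0.0752). The brighter Irf1 probe, Irf2, Irf5 and Irf7 differed by 0.61, 0.55, 1.09 and 1.17, and none of them was called (adjusted p from 0.351 to 0.841). Their arrays did not overlap, but with so few arrays this adds nothing to the test, and its share over all probes was not counted. Markers of other cells differed over the same step. The mean of the 5 plasmacytoid dendritic cell markers was 5.60 to 5.88 on ST-HSC arrays and 7.40 to 7.91 on MPP arrays, with Cox6a2 at 6.90 and 10.9 and Ccr9 at 5.58 and 8.78, while Siglech was not well above background in either. The MEP markers had means of 8.57 to 9.11 in ST-HSC and 6.20 to 7.21 in MPP, the GMP marker Elane 12.6 and 9.23 as population means, and the mature neutrophil markers 13.6 to 15.1 and 11.9 to 13.9. Their part in the Irf8 and Irf9 differences was not tested.

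In CMP against MPP, 1 Irf probe was higher and 1 lower, against 6.75% and 5.39% of all probes. The dimmer Irf8 probe was 4.70-fold higher in CMP, 2.23 ± 0.59 (adjusted p = 0.0281), and the brighter 1.18 ± 0.43 (adjusted p = 0.0944). Irf2 was 2.92-fold lower in CMP, -1.54 ± 0.34 (adjusted p = 0.0127). Run 2 alone held both populations, and with run as a block neither passed (Irf8 dimmer probe 1.94, adjusted p = 0.26, and Irf2 -0.93, adjusted p = 0.256), while the brighter Irf1 probe did, at -1.13 (adjusted p = 0.0292). Irf4 then had an adjusted p of 0.049, against 0.259 without the block, with overlapping arrays and no CMP array well above background, so no fold is given. Leaving out single arrays lost the Irf2 call in 3 cases (MPP replicate 2, CMP replicate 1 and CMP replicate 2, adjusted p up to 0.0686) and the Irf8 call in 5 (each MPP array and both numbered CMP arrays, adjusted p up to 0.12).

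Irf4, which is needed for plasma-cell development and for switched B cells, had its signal mainly in LT-HSC. The probe (chr13:30858459-30858518, mm9) read 8.41 and 7.03 on the 2 LT-HSC arrays. On the MPP arrays it read 6.18, 4.95 and 2.43, and on the ST-HSC arrays 4.75, 2.04 and 1.98, where the values under 4 were not well above background. No CMP, GMP or MEP array was well above background, with values from 1.56 to 3.47. The LT-HSC arrays were thus above all others and the remaining HSC arrays spread over several log2 units, with the unnumbered array of run 2 the highest in both ST-HSC and MPP.

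In ST-HSC against LT-HSC, Irf4 was the only Irf probe called, with a log2 difference of -4.79 ± 0.96 (adjusted p = 0.0167), against 2.49% of all probes lower and 0.852% higher in ST-HSC. The probe was measured well above background on 1 of 3 ST-HSC arrays, and both LT-HSC arrays lay on a slide that held no ST-HSC array, so slide and population cannot be told apart. Within run 3 the difference was -5.71, taken against ST-HSC arrays that were not well above background (2.04 and 1.98), and is no measure of size. The call was lost with slide as a random block (adjusted p = 0.084) and without ST-HSC replicate 2, ST-HSC replicate 3 or the pooled LT-HSC array (adjusted p up to 0.0644). The difference was -1.62 after normexp background correction and -2.43 in the authors' table, both past the threshold. In HSC subsets against myeloid populations, Irf4 was at least 1.70-fold higher in HSC subsets (adjusted p = 0.000503), a bound set by the dimmest signals well above background in the myeloid arrays. The fitted log2 difference, against values at background, was 2.93 ± 0.52 and is no measure of size. It was 1.60 (adjusted p = 0.0375) when both LT-HSC arrays were left out, 0.74 (adjusted p = 0.00114) after normexp and 1.21 in the authors' table. Without LT-HSC no bound is given. The ST-HSC and MPP means were 2.92 and 4.52, with 1 of 3 and 2 of 3 arrays well above background. The dimmest signals well above background on the myeloid arrays were 3.61 to 4.78, so the bound rests on the LT-HSC arrays.

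Some markers of B cells and plasma cells had their highest level in LT-HSC too, with no test of these lists. Lineage depletion before the sort used antibodies to the B-cell antigen B220 and to CD3, as well as GR-1 and Ter119. Ms4a1, the B-cell antigen CD20, had a log2 level of 9.49 ± 0.81 (SD, n = 2) in LT-HSC, 4.46 ± 1.91 (n = 3) in ST-HSC and 3.83 ± 0.77 (n = 3) in MPP, and was not well above background on any CMP, GMP or MEP array. Prdm1, the plasma-cell regulator Blimp-1, read 6.87 ± 1.63 (n = 2) in LT-HSC, where 1 of 2 arrays was well above background, and at most 3.30 as a population mean elsewhere. The mean of the 3 plasma-cell markers (Sdc1, Xbp1 and Prdm1) was 8.27 to 9.86 on the LT-HSC arrays and at most 7.27 on any other, although Xbp1 had a higher mean in GMP (10.5) than in LT-HSC (10.3) and Sdc1 had nearly the same in MPP as in LT-HSC. The mean of the 5 B-cell markers was 7.49 to 7.74 on the LT-HSC arrays and at most 6.22 on any other, while Pax5, the B-lineage factor, was not well above background on either LT-HSC array. The mean of the 5 markers of T and NK cells was 7.86 to 8.04 there and at most 7.29 on any other array, and Nkg7 went the other way, with 12.5 in LT-HSC and 15.2 in GMP. Other lists differed between LT-HSC and ST-HSC too. The mean of the MEP markers was 10.1 to 11.1 in LT-HSC and 8.57 to 9.11 in ST-HSC, with 12.7 to 13.0 in MEP. That of the mature neutrophil markers was 14.5 to 15.3 in LT-HSC and 13.6 to 15.1 in ST-HSC. Whether any of these cells carried part of the Irf4 signal was not tested.

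**Figure D4:**
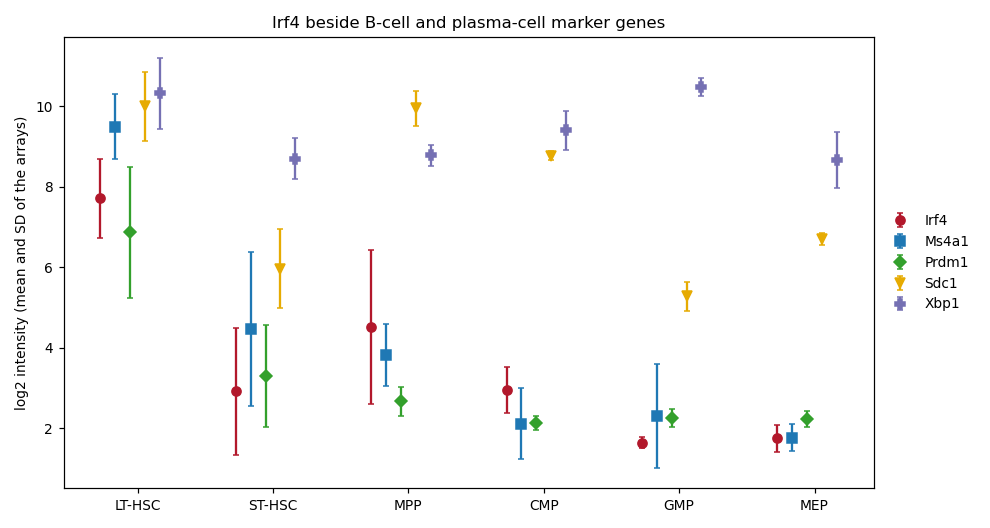
Log2 intensity (vertical axis) of Irf4 and of a B-cell (Ms4a1) and plasma-cell (Prdm1, Sdc1, Xbp1) marker genes, as the mean and SD of the arrays of each population. Irf4, Ms4a1 and Prdm1 share their highest mean in LT-HSC, at 7.72, 9.49 and 6.87, while Sdc1 and Xbp1 are as high elsewhere.

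Irf7 and Irf9, which raise and relay the type I interferon signal, had their lowest means in GMP, Irf9 by its brighter probe only. Irf7 read 8.99, 9.27 and 8.25 in MEP and 6.68, 7.05 and 6.28 in GMP. In CMP it read 8.20, 8.62 and 7.16, and in MPP 8.17, 8.48 and 9.08. The order of Irf7 means was MEP, MPP, LT-HSC, CMP, ST-HSC and GMP, and the arrays of every neighboring pair overlapped, so that the order holds only between populations farther apart, such as GMP and MEP. The 2 LT-HSC arrays read 7.43 and 9.32. The brighter Irf9 probe varied little and tightly, from 9.44 ± 0.17 (SD, n = 3) in GMP to 10.27 ± 0.06 (n = 3) in MPP, and its correlation with Irf7 over the 17 arrays was 0.74. The dimmer Irf9 probe ranged from 4.23 to 8.25 between the 2 LT-HSC arrays alone and correlated with the brighter at 0.02, so the dimmer probe did not follow it.

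Irf3, the constitutive partner of Irf7 that is switched on by phosphorylation, was level across the populations. The means of the brighter Irf3 probe ran from 12.79 ± 0.17 (SD, n = 3) in ST-HSC to 13.09 ± 0.27 (n = 3) in MPP, with an F-test adjusted p of 0.61, and all neighbors overlapped. Those of the dimmer Irf3 probe ran from 8.10 ± 0.27 to 8.51 ± 0.31 (adjusted p = 0.69). No Irf3 probe passed in any comparison. For the brighter probe the 95% interval of HSC subsets minus myeloid populations was -0.19 to 0.25, which bounds the difference without showing that there was none.

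Irf1, induced by interferon gamma, and its counterpart Irf2 were highest in MPP by the brighter Irf1 probe and the only Irf2 probe. The brighter Irf1 probe (chr11:53590715-53590774, mm9) read 13.85, 13.68 and 13.58 in MPP, 13.10 and 13.15 in LT-HSC and 13.34, 12.88 and 13.06 in ST-HSC. It read 13.07, 13.16 and 12.53 in CMP, 12.17, 12.10 and 11.94 in GMP and 12.05, 12.21 and 11.03 in MEP. MPP stood above every other array and GMP below every CMP array, but GMP and MEP overlapped, as did LT-HSC, ST-HSC and CMP. Irf2 read 10.08, 9.82 and 9.40 in MPP, 9.23, 9.26 and 9.19 in ST-HSC and 9.44 and 8.36 in LT-HSC. In CMP it read 7.99, 7.97 and 8.71, in GMP 8.06, 7.42 and 7.84 and in MEP 7.53, 7.77 and 8.66. The unnumbered CMP and MEP arrays of run 2 were the highest of their populations and overlapped the lower LT-HSC array.

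The Irf1 and Irf2 windows are shown because Irf2 was the only Irf gene with all 3 motifs and Irf1 has a GAS match. The GAS match of the first Irf1 window (chr11:53769764-53770063, plus strand) begins at -90 from the start, and the window of its other start (chr11:53770223-53770522) held none of the 3 motifs. In the Irf2 window (chr8:46739495-46739794, plus strand) a composite match and an ISRE-type match overlap, beginning at -247 and -241 from the start, and a GAS match begins at -224.
Irf1: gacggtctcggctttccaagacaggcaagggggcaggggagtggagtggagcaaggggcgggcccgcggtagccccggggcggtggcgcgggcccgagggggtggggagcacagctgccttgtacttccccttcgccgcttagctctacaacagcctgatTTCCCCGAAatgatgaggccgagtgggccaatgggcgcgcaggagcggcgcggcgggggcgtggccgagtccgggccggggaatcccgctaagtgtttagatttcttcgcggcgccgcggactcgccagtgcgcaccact
Irf2: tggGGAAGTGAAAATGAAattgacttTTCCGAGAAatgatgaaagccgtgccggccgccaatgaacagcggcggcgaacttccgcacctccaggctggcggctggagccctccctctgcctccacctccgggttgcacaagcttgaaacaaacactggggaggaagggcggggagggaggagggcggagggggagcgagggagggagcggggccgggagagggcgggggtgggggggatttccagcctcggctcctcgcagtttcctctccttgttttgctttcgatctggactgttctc

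The comparison of HSC subsets with myeloid populations asked whether the family separates the stem-cell side from the committed side. It called 3 Irf probes higher in HSC subsets and 2 lower, against 18.2% and 23.1% of all probes, and the arrays of the sides overlapped in all 5. The brighter Irf1 probe was 2.08-fold higher, 1.06 ± 0.16 (adjusted p = 0.000171), Irf2 was 2.46-fold higher, 1.30 ± 0.21 (adjusted p = 0.000222), and Irf4 was higher as given above. The dimmer Irf1 probe was lower, -1.08 ± 0.34 (adjusted p = 0.0228), and so was the dimmer Irf8 probe, -1.11 ± 0.36 (adjusted p = 0.023), whereas the brighter Irf8 probe was not called at -0.32 (adjusted p = 0.358). The median over the 12 probes was 0.04, beside -0.02 over all probes.

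Scanning run divided these 5 calls. With run as a block the brighter Irf1 probe kept its direction and passed at 1.39 (adjusted p = 0.00198). Irf4 passed too (adjusted p = 0.00114), with a fitted value of 4.75 that rests on myeloid levels at background and is not a size. Irf2 had a value of 0.66 (adjusted p = 0.239), and the dimmer Irf8 probe had a value of -0.85 (adjusted p = 0.5). The dimmer Irf1 probe turned to 0.46 (adjusted p = 0.576). Irf7, not called without the block at 0.29, then passed at 1.58 (adjusted p = 0.0416). Within run 2, with 1 array a population and no test, the values were 1.49 for the brighter and 0.45 for the dimmer Irf1 probe, 0.89 for Irf2, 1.35 for Irf7 and -0.82 for the dimmer Irf8 probe. The Irf4 value there, 3.13, was again taken against myeloid arrays at background.

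**Figure D5:**
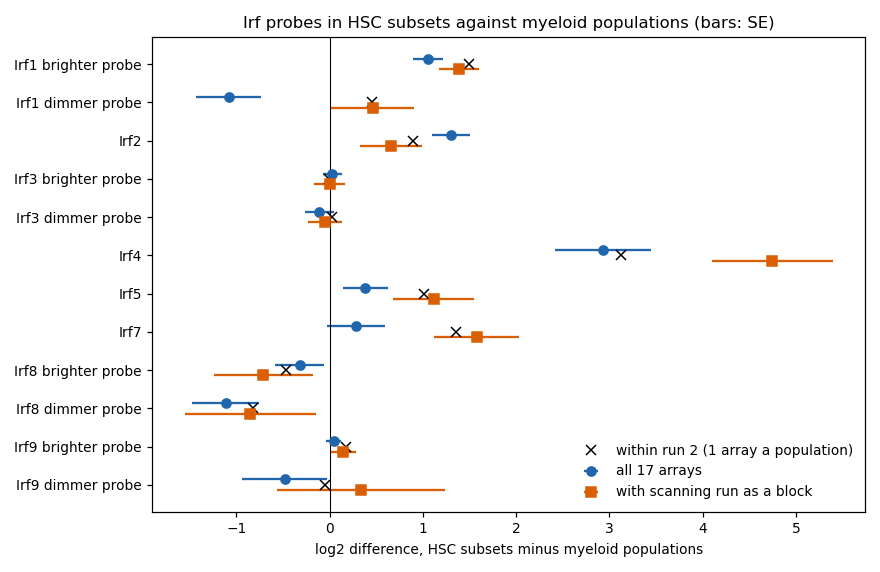
Log2 difference of HSC subsets minus myeloid populations (horizontal axis) for each Irf probe over all 17 arrays (circles), with scanning run as a block (squares), both with the SE, and within run 2 (crosses, no error). The brighter Irf1 probe and Irf4 lie above 0 in all 3, Irf4 against myeloid levels at background, while the dimmer Irf1 probe lies at -1.08 over all arrays and at 0.46 with the block.

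The pair of Irf1 probes gave opposite signs in that comparison over all arrays, and their levels correlated at -0.11 over the 17 arrays. In the annotation of the array the dimmer Irf1 probe spans 146 bases (chr11:53587446-53587591, mm9) for a 60-base oligonucleotide, as does that of Irf9 with 211 bases (chr14:56224980-56225190), a span longer than the oligonucleotide itself. Irf7 spans 351 bases (chr7:148450664-148451014) and has no other probe. Without the pooled LT-HSC array, the dimmer probes of Irf1 and Irf8 were no longer called in HSC subsets against myeloid populations (adjusted p = 0.0872 and 0.059).

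Genes with the most like pattern over the 17 arrays were found by the Pearson correlation of each gene's brightest probe, among genes well above background on at least 9 arrays, and are given as descriptions over arrays that share runs and populations. For Irf8 they were Il6st (0.97), 6330442E10Rik (0.97) and Rasa4 (0.96), and for Irf5 Ppm1m (0.98), Il10ra (0.97) and Laptm5 (0.96). For Irf1 they were Nfkbiz (0.97), Zbtb10 (0.97) and Nfkbie (0.96), of which Nfkbiz and Nfkbie encode members of the IκB family. For Irf2 they included Csnk1a1 (0.96) and Ttc8 (0.96). The likest were less alike for Irf7, at 0.87 for AK085055 and Dzip1 and 0.86 for Ube2l6, and for Irf9, at 0.87 for Cmah, 0.86 for Tmem109 and 0.85 for Arpp21. Ube2l6 encodes the conjugating enzyme for the ubiquitin-like Isg15. Irf3 was not searched since its probe did not pass the F-test, nor Irf4, which was too rarely above background.

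Upstream of the factors lie the interferon receptors with their Jak and Stat proteins, of which GMP had several at a higher level than MEP. Of 9 genes measured, 4 were higher in GMP and none lower, against 10.3% and 8.26% of all genes by their brightest probe, with a median log2 difference of 0.81 beside -0.07 over all genes. Ifngr2, a chain of the interferon gamma receptor, was higher by 1.62 ± 0.19 (SE, adjusted p = 3.61e-05) and Ifnar2, a chain of the interferon alpha and beta receptor, by 0.98 ± 0.16 (adjusted p = 0.000505). Of 17 sensors, adaptors and kinases, 6 were higher in GMP and 1 lower, with a median of 0.42. Tmem173, the DNA-sensing adaptor STING, was higher by 4.08 ± 0.23 (adjusted p = 1.09e-07), and Tlr4, the lipopolysaccharide receptor, was at least 4.44-fold higher (adjusted p = 0.000146), being not well above background on any MEP array. Ifih1, the RNA sensor MDA5, was the gene that was lower, with -0.80. With run as a block the counts higher and lower were 5 and 2 for the receptors and 7 and 2 for the sensors.

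Among 11 partners and regulators of Irf proteins, 3 were higher in GMP and 3 lower, against the same 10.3% and 8.26% of all genes, with a median of -0.05. Sfpi1, the gene of PU.1 with which Irf8 and Irf4 bind composite sites, was higher by 2.99 ± 0.55 (adjusted p = 0.00135) and Batf, an AP-1 partner of Irf4 and Irf8, by 1.57 ± 0.35 (adjusted p = 0.00552). Irf2bp2 was also higher, and Spib and Tcfe2a were among the lower. Of 7 genes reported as Irf8 targets, 4 were higher in GMP and 1 lower, with a median of 1.43. Klf4, a monocyte factor, was higher by 3.50 ± 0.14 (adjusted p = 1.66e-08). Ptpn13, a phosphatase gene that Irf8 is reported to repress, was at least 56.7-fold lower in GMP (adjusted p = 2.32e-07), where no array was well above background. In CMP, where Irf8 was highest, all 3 arrays had Ptpn13 well above background. Its mean there was 5.78, beside 5.45 in MPP and 6.23 in ST-HSC. Of 6 interferon ligands measured, 1 was lower in GMP, Ifng, at least 1.68-fold (adjusted p = 0.00032), and 2 were lower with run as a block.

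Interferon-stimulated genes, the usual readout of this family, went in both directions between GMP and MEP and were mostly higher on the HSC side. In GMP against MEP 4 of 19 were higher and 5 lower, against 10.3% and 8.26% of all genes, with a median of -0.04. Psmb8, an immunoproteasome subunit, was higher in GMP by 2.12 ± 0.22 (adjusted p = 1.24e-05), and Mx1, an antiviral GTPase, was at least 1.57-fold higher (adjusted p = 0.044), while Isg15, Usp18, Rsad2, Ifit1 and Iigp1 were lower. In HSC subsets against myeloid populations 13 of 19 were higher and 2 lower, against 21.7% and 19% of all genes, with a median of 0.78 beside 0.04 over all genes. Iigp1, a GTPase of the interferon gamma response, was higher by 4.40 ± 0.25 (adjusted p = 5.31e-08) and Ifit3 by 2.93 ± 0.17 (adjusted p = 6.71e-08), and with run as a block 10 were higher and none was lower. Of 5 markers of mature neutrophils, 4 were higher in HSC subsets as well, 5 with the block. So were 4 of 5 markers of B cells and 2 of 3 of plasma cells, 2 each with the block, and 4 of 5 of T and NK cells and 2 of 4 of mature erythroid cells, none with the block. Of the 5 plasmacytoid dendritic cell markers 3 were higher, 1 with the block. The part of such cells in these levels was not tested. The other lists in the same comparison were mixed. Of the sensors 8 were higher and 3 lower, with Dhx58 higher by 0.86 ± 0.09 (adjusted p = 1.01e-05), and 3 and 0 with the block. Of the receptors 2 were higher and 1 lower, and none with the block. Of the partners 2 were higher, among them Crebbp by 1.15 ± 0.13 (adjusted p = 2.05e-05), and 3 lower, and 1 and 0 with the block. Of the ligands 2 were higher, Ifng and Ifna2, with 1 of them past the threshold with the block. Of the reported Irf8 targets 3 were higher, led by Klf4 at 2.47 ± 0.08 (adjusted p = 9.31e-10), and Nf1 was lower at -1.52 ± 0.25 (adjusted p = 0.000255), a call lost with the block (adjusted p = 0.118).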

How the data were processed

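RNA of each sorted population was labelled with Cy3 and hybridized, 1 sample an array. Per the file headers, the authors deposited scanner output in which Agilent Feature Extraction (10.2.1.3 on 11 arrays, 9.5.3.1 on 6) had subtracted background from the intensity of each spot and removed spatial trends within the array. A second deposited table held log2 values of those arrays, quantile normalized in limma, whose rows follow the spots in file order.

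The processed intensities were put on a log2 scale, and quantile normalization over all spots followed (limma 3.58.1, R 4.3.3). Then 1639 control spots and spots with an outlier mark were left out, and spots of a probe were averaged. No Irf value was missing. Gene names, and probe positions on mm9, came from the newer scanner files and were carried to the others by probe, where Irf9 had its older name Isgf3g. Elane was found as Ela2, Mavs as D430028G21Rik and the E2A gene as Tcfe2a, since Tcf3 on this array is by its accession the gene now called Tcf7l1. Ifna1 and Cebpe were not found.

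lmFit and eBayes were run on the 17 arrays together with a separate mean for each population. The F-test and 7 contrasts were read with Benjamini-Hochberg adjustment over all 41174 probes at 0.05. HSC subsets were the equal-weight mean of LT-HSC, ST-HSC and MPP, and myeloid populations that of CMP, GMP and MEP. A fold is printed as a lower bound where no array of the dimmer group was well above background, from the dimmest signal that was on each of those arrays. The fit was tested on simulated data. The alternatives were normalization to the 75th percentile, normexp (offset 50), the authors' own table, dropping probes well above background on fewer than 3 arrays, blocks for scanning run or replicate number, a random block for slide, both LT-HSC arrays left out, the brightest probe a gene, and leaving out every array singly. The genes and lists were chosen with earlier results of these data known. All 12 Irf probes are named. Of each list the genes named are the 2 with the largest difference among those called whose arrays did not overlap, read by the brightest probe, and the other list genes named were chosen after their values were seen. Some genes are not reported here. The number of arrays limits the precision.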

Additional observations from a re-analysis of the deposited data

How the results depend on the processing

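The calls of Irf8, Irf5, Irf7 and Irf9 in GMP against MEP and of Irf8, Irf5 and Irf1 in MEP against CMP kept their direction and stayed past the threshold under every alternative that kept the probe, and without any single array. Over the called differences and the alternatives other than single omissions, 160 values stayed called, 13 were no longer past the threshold and 1 turned, that of the dimmer Irf1 probe in HSC subsets against myeloid populations (0.46 with scanning run as a block). With 1 array left out, 315 values stayed called, 25 were no longer past the threshold and none turned. The count of Irf probes called in HSC subsets against myeloid populations moved from 5 to 3 with scanning run as a block, with slide as a random block and with the brightest probe a gene, and in GMP against CMP from 1 to 0 at the 75th percentile and to 2 with run or with slide as a block. It moved in MPP against ST-HSC from 2 to 1 at the 75th percentile, in ST-HSC against LT-HSC from 1 to 0 with slide as a block, and in CMP against MPP from 2 to 1 with the brightest probe a gene, which drops the dimmer Irf8 probe and so also left 4 of 5 in GMP against MEP and 3 of 4 in MEP against CMP. With 1 array left out the counts ran from 7 to 9 in the F-test, 4 to 7 in HSC subsets against myeloid populations, 0 to 4 in ST-HSC against LT-HSC, 0 to 3 in MPP against ST-HSC, 0 to 3 in CMP against MPP, 0 to 2 in GMP against CMP, and stayed at 4 in MEP against CMP and 5 in GMP against MEP. The 75th percentile shifted the median of all probes, to 0.31 in HSC subsets against myeloid populations, 0.49 in MEP against CMP and -0.43 in GMP against MEP, and the share of all calls that were higher in HSC subsets from 44% to 64.1%, in ST-HSC against LT-HSC from 25.5% to 12.3% and in CMP against MPP from 55.6% to 40.9%. The cause of these shifts was not tested. The Irf9 difference of GMP from MEP at the 75th percentile was -0.68, beside that median of -0.43.

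Arrays with the same replicate number shared a slide within the myeloid or the HSC populations. Their deviations from the population means correlated at 0.131 to 0.521, against -0.0587 to 0.00581 across slides. Every pair across slides set an HSC population against a myeloid one, which came from another sort. A shared number was thus never seen apart from a shared slide within a sort, and these values cannot decide whether the numbers mark pairs. The labels do not say, so the main fit left the numbers out and a block for them was an alternative. MPP against ST-HSC and each contrast between myeloid populations had 2 such numbered pairs, and ST-HSC against LT-HSC had none. With the replicate block the count of Irf probes called was 3 in HSC subsets against myeloid populations, 5 in CMP against MPP and 2 in GMP against CMP. In ST-HSC against LT-HSC the pooled LT-HSC array has a number of its own and so drops out of the contrast. Only the unnumbered LT-HSC array is left, the dimmest of all, and no call is given. It was scanned in run 3 but shares its block with the unnumbered arrays of run 2. The differences there were -1.49 and -2.76 for the brighter and dimmer Irf8 probes and -3.01 for the dimmer Irf9 probe. The pooled array read 11.05, 7.78 and 4.23 by these probes, in each case below every ST-HSC array. The probes gained in the other comparisons were the brighter Irf1 and Irf8 probes and Irf4 in CMP against MPP, and the brighter Irf1 probe in GMP against CMP. In MPP against ST-HSC the dimmer Irf8 probe was gained (1.90, adjusted p = 0.0124), which makes 3 calls. The dimmer probes of Irf1 and Irf8 were lost in HSC subsets against myeloid populations.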
